A study of Mus musculus with 4 samples.

Results

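The added high fat at 6 weeks is the contrast between liver RNA of mice fed an atherogenic diet supplemented with high fat and liver RNA of mice fed the plain atherogenic diet, both for 6 weeks. Atherogenic diets are cholesterol-rich feeds used to induce vascular lesions and liver injury in mice. The sources used here give neither the composition of these feeds nor the number of livers behind each RNA sample or any pooling. All mice of the series were male C57Bl/6J, an inbred laboratory strain, and each diet sample (Cy5) was hybridised against liver RNA of mice on standard chow (Cy3) on its own 2-colour 30K oligonucleotide array, after amplification of the RNA. The chow reference of the high-fat array was matched at 6 weeks by its label, while the label of the plain array's chow reference gives no duration, so whether both references were the same RNA is not known. The 2 other arrays of the series held the same diets at 24 weeks. With 1 array a diet there is no replicate, so every value below is a size without a test, and a difference describes these arrays and not the diets in general.

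For each gene, the log2 ratio over chow on the plain atherogenic array was subtracted from that on the high-fat array, so that a positive difference means a higher ratio with the added fat. The members of the contrast are the 13717 genes with a value on both 6-week arrays, taken as the mean of the probes that name 1 gene. Of these, 13705 had values on all 4 arrays. Genes are called higher or lower here when they differed at least 2-fold (1 log2 unit). Neither list medians nor counts are compared with chance, and the gene lists were chosen with earlier results of these data known. A ratio holds no level, so the labelled tissue could not be checked against marker levels, and in whole liver fewer cells of a type and less RNA per cell cannot be told apart.

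As background, the liver burns fatty acids in the mitochondrial matrix by repeated cycles of dehydrogenation, hydration, a second dehydrogenation and thiolysis, which shorten the acyl chain and pass electrons to the respiratory chain. It also disposes of cholesterol by turning it into bile acids, and it detoxifies lipophilic compounds with cytochromes P450, carboxylesterases and conjugating enzymes. Liver macrophages, called Kupffer cells, and infiltrating leukocytes present antigen on MHC class II and respond to interferon. Each of these programmes is known to react to sterol-rich or fat-rich feeding.

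Of the 13717 genes, 196 were at least 2-fold higher with the added fat, a share of 1.43%, and 436 were at least 2-fold lower, a share of 3.18%. The median difference of all genes was -0.04 on the log2 scale, with an SD across genes of 0.47 and extremes of -3.03 and 2.29. The values over chow show where the differences lie. Among the higher genes, 140 lay below chow on the plain array and above chow on the high-fat array, and 52 lay below chow on both but nearer to it with the added fat. Among the lower genes, 237 changed sides of chow and 165 lay above chow on both arrays but nearer to it with the added fat. The plain array alone was at least 2-fold from chow for 77 of the higher and 237 of the lower genes, against 9 and 65 for the high-fat array alone. The plain array also had the wider spread, with an SD over probes of 0.53 against 0.37 and a median absolute deviation of 0.30 against 0.18.

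**Figure D1:**
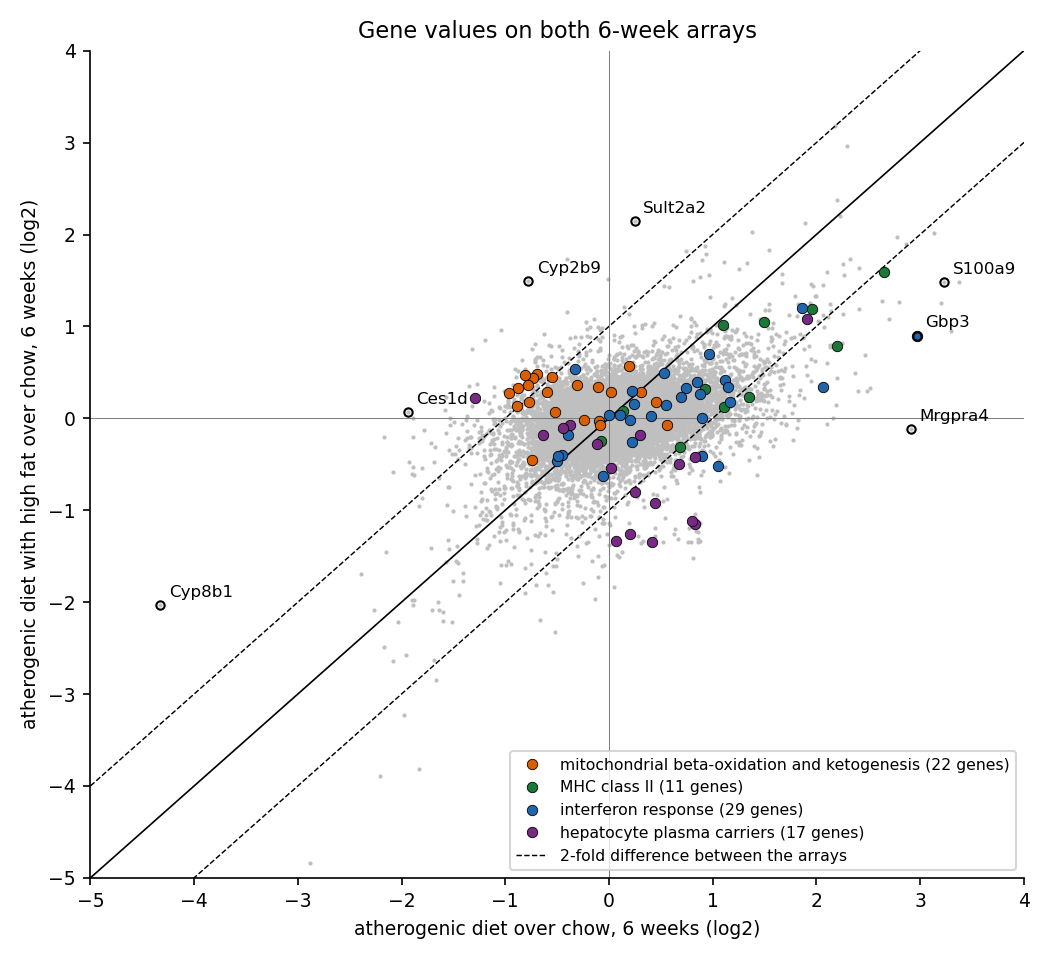
Each grey point is 1 of the 13717 genes, with its log2 ratio over chow on the plain atherogenic array (horizontal axis) against that on the high-fat array (vertical axis) at 6 weeks. The dashed lines mark a 2-fold difference between the arrays; the beta-oxidation genes lie mostly to the upper left of the solid line of equality, and the MHC class II, interferon and hepatocyte plasma carrier genes mostly to its lower right.

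Measured properties of the arrays bear on these counts and are given before the genes. With both arrays scaled to the same median absolute deviation, 134 genes were higher (0.977%) and 462 lower (3.37%), and 99 of the 196 and 288 of the 436 were at least 2-fold in both versions. The last 2 digits of the probe identifiers, which run from 01 to 24 like the columns of a spotting plate, moved with the values. On the plain 6-week array the medians over probes by this code ranged from -0.23 to 0.54, and on the high-fat 6-week array from -0.02 to 0.06. Codes 11, 12, 23 and 24 had the highest medians on the plain 6-week array, from 0.30 to 0.54. They held 16.6% of the named probes but 59.0% of those at least 2-fold lower and 4.69% of those at least 2-fold higher. Because the plain value is subtracted, such shares follow in part from taking the codes with the highest plain medians. After each array was centred by the row and column codes of its identifiers, 128 genes were higher (0.933%) and 349 lower (2.54%), and 106 and 235 of these were among the genes counted as deposited. In all, 75 higher and 179 lower genes were at least 2-fold as deposited, scaled and centred by code. The share of higher genes among all those counted was 31.0% as deposited, 19.3% with each array centred on its median, 42.1% after quantile normalization and 42.4% after centring by plate, row and column codes, so the balance between directions is not fixed by these data. What the code stands for was not tested.

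**Figure D2:**
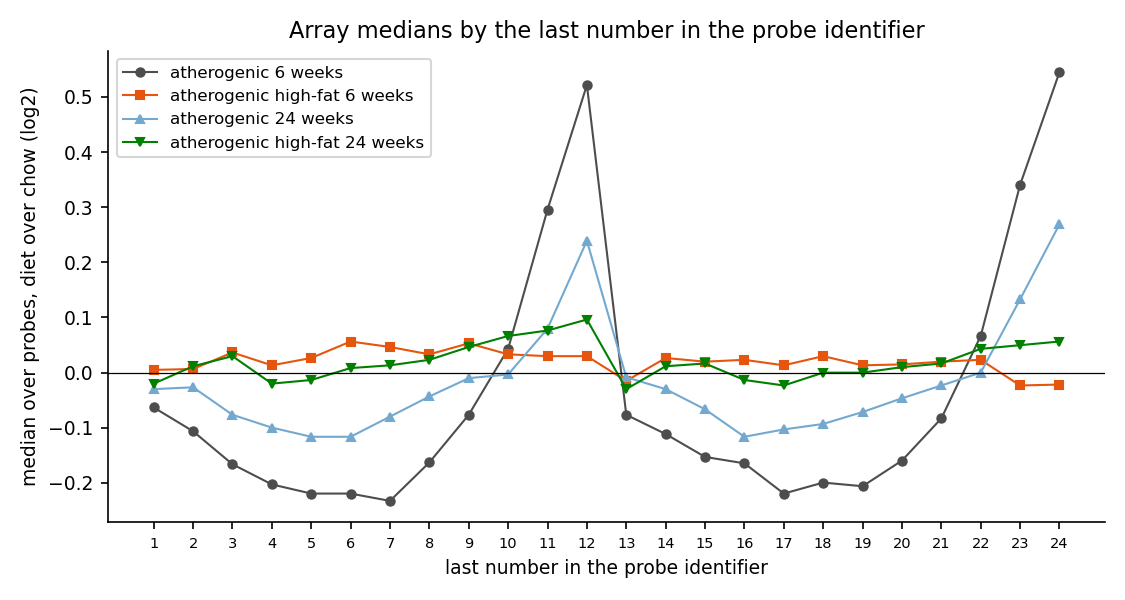
Median log2 ratio over chow of the probes (vertical axis) by the last number of the probe identifier (horizontal axis, 1 to 24), 1 line for each array. The plain 6-week array peaks at 0.54 and reaches down to -0.23, the plain 24-week array runs from -0.12 to 0.27, and both high-fat arrays stay within -0.03 and 0.10.

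A second probe of the same gene gave a further measure of precision. Over the 2767 genes with more than 1 probe, the pooled SD between probes of the difference was 0.45. Where a gene had exactly 2 probes and the first differed at least 2-fold upward, which held for 29 genes, the other probe pointed the same way in 15 and had a median difference of 0.01. Where the first probe differed at least 2-fold downward, which held for 85 genes, the other agreed in direction in 47 and had a median difference of -0.11. Over all 2230 genes with exactly 2 probes, the other probe had a median difference of 0.01, the same as after an upward first probe. The differences of the 2 probes had a correlation of 0.15. Most values below come from 1 probe, so a large difference of a lone gene is less secure than a shift shared by the genes of a list.

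In mitochondrial beta-oxidation and ketogenesis, 8 of 22 measured genes were at least 2-fold higher (6 scaled, 5 centred by code) and none was lower in any of these versions. The median difference of the list was 0.63, against -0.04 for all genes, and it stayed at 0.59 with arrays scaled and at 0.56 centred by code. On the plain array the list's median lay at -0.53 relative to chow and on the high-fat array at 0.28. For 13 of the 22 genes the plain value was below chow and the high-fat value above it. Members of the list named here beyond its 4 largest differences were chosen after their values were seen.

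The acyl-CoA dehydrogenases, which take the first step for chains of different length, did not move alike. Acadm, the medium-chain enzyme, was at -0.70 relative to chow on the plain array and at 0.48 with the added fat, a difference of 1.18. Acadl, the long-chain enzyme, differed by 0.67 and Acadvl, the very-long-chain enzyme, by 0.58, each as a mean of 2 probes. Acads, the short-chain enzyme, differed by 0.22, below the spread between probes of a gene.

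Both subunits of the mitochondrial trifunctional protein, which performs the later steps on long chains, were higher. Hadha was at -0.88 on the plain array and 0.14 on the high-fat array, a difference of 1.02. Hadhb was at -0.87 and 0.33, a difference of 1.20. Their values were thus alike on either array. In the RefSeq promoter table (GRCm38.p6) Hadha starts at position 30154980 of chromosome 5 on the minus strand and Hadhb at position 30155253 on the plus strand, head to head with 272 bases between the starts. The 250 bases before the Hadhb start, all within that interval, are shown because both genes of the pair share them.
Hadhb, chr5:30155003-30155252, plus strand, with no capitals because the searched motif is not in it: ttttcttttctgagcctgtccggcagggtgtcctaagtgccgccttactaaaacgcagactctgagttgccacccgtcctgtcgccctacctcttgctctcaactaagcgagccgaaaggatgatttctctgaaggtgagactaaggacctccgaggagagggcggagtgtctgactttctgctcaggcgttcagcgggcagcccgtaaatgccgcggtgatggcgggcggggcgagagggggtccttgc
The promoter of Acadm is shown as 1 of the list's promoters that hold the nuclear receptor half-site AGGTCA, in capitals as read on either strand (here as its reverse complement).
Acadm, chr3:153944644-153944893, minus strand: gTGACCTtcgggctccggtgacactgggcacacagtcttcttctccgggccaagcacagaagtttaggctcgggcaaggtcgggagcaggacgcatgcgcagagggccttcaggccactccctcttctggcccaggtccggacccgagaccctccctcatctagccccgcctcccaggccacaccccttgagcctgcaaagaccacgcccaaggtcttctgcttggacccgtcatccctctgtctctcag
Over the 250 bases before the start, AGGTCA on either strand was found in 3 of the 19 promoters of the list that had an entry (Acadm, Acadvl and Echs1), and in 13.8% of all 27025 promoters of the table, each gene taken at its first listed start. AGGTCANAGGTCA, which holds the half-site at both ends, was found in none of the 19 and in 0.037% of all. The matches describe these letters only, since no binding was measured.

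Enzymes that complete the cycle or feed it showed the same sign. Eci2 and Eci1, isomerases that prepare unsaturated chains, had differences of 1.29 and 1.17. Hadh, the short-chain hydroxyacyl-CoA dehydrogenase, had a difference of 0.94 and Acat1, a mitochondrial thiolase, was at -0.55 on the plain array and 0.46 on the high-fat array. The electron carriers that link the dehydrogenases to the respiratory chain were likewise higher. Etfdh, the ubiquinone oxidoreductase of this route, was at -0.96 on the plain array and 0.28 on the high-fat array, and Etfb and Etfa, the subunits of the electron transfer flavoprotein, differed by 1.14 and 0.88.

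Other parts of the route showed little difference or the opposite sign. Slc25a20, the carnitine-acylcarnitine carrier, differed by 0.07 and Cpt2, the inner-membrane carnitine palmitoyltransferase, by 0.29. Pdk4, a kinase that restrains glucose oxidation and is a common reporter of fatty acid signalling, differed by 0.01. Echs1, the short-chain enoyl-CoA hydratase, was at 0.45 on the plain array and 0.18 on the high-fat array, a difference of -0.27. Ppargc1a, a coactivator of mitochondrial genes, was at 0.56 and -0.08, a difference of -0.64. At 24 weeks the list's median difference was 0.14 and no gene of it was 2-fold apart in either direction.

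**Figure D3:**
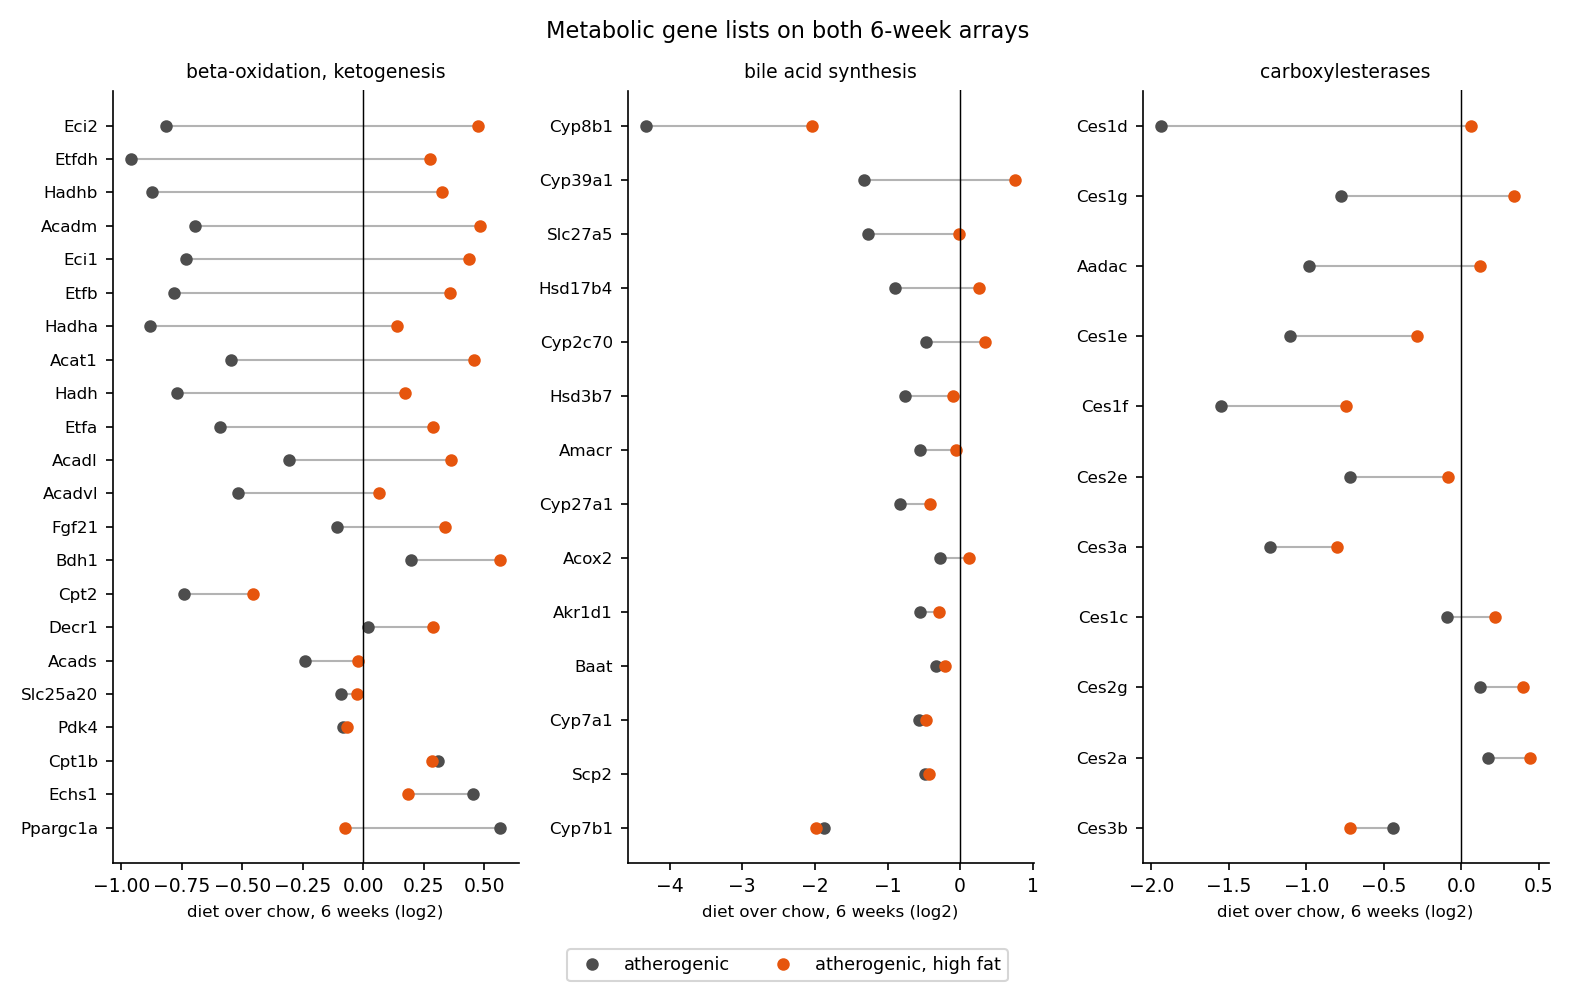
Log2 ratio over chow (horizontal axis) of each measured gene of the beta-oxidation, bile acid synthesis and carboxylesterase lists on the plain atherogenic array (grey) and the high-fat array (orange), 1 array each, ordered by their difference. In the upper rows of each panel the plain value lies below chow and the high-fat value near or above it, as for Etfdh at -0.96 and 0.28, while Cyp8b1 lies below chow on both arrays.

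The respiratory chain and ATP synthase followed only in part, with 3 of 63 genes at least 2-fold higher as deposited, none lower and a median difference of 0.15 (0.24 scaled). With arrays scaled 3 were higher and 1 lower, and centred by code 2 were higher and 1 lower. Atp5c1, the gamma subunit of ATP synthase, was at -0.83 on the plain array and 0.63 on the high-fat array. Uqcrfs1, the Rieske iron-sulfur protein of complex III, was at -0.81 and 0.54. Sdhb, the iron-sulfur subunit of succinate dehydrogenase, differed by 1.13 as a mean of 2 probes. Peroxisomal beta-oxidation had none of 16 genes 2-fold apart and a median of 0.31, which became 0.11 with arrays scaled.

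Among the Cyp4 omega-hydroxylases, which attack the far end of fatty acids and are classic targets of PPAR-alpha, 2 of 11 genes were higher and none lower, with a median of 0.35. With arrays scaled none was 2-fold apart and the median was 0.03. Cyp4a14 was at -1.71 relative to chow on the plain array and at -0.27 on the high-fat array, with a scaled difference of 0.93. Cyp4a31 was at -1.37 and -0.13, with a scaled difference of 0.84. Cyp4a10, their close relative, was at -1.20 and -0.70, a difference of 0.50 that was -0.05 with arrays scaled. These genes were below chow on both arrays, and near-identical copies in this family can share signal on an oligonucleotide array.

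Bile acid synthesis and conjugation had 4 of 14 genes higher, none lower and a median of 0.46 (0.30 scaled, 0.38 centred by code). With arrays scaled the count was 1 higher, Cyp39a1, and 1 lower, Cyp7b1. Cyp8b1, the sterol 12-alpha-hydroxylase that directs synthesis toward cholic acid, was at -4.33 on the plain array and at -2.04 on the high-fat array. Its difference of 2.29 was the largest positive one of all genes as deposited, but it shrank to 0.67 with arrays scaled, since it lay far from chow on both. Cyp39a1, the oxysterol 7-alpha-hydroxylase for 24-hydroxycholesterol, was at -1.32 on the plain array and at 0.76 on the high-fat array, and kept a difference of 1.99 with arrays scaled. Slc27a5, the bile acid CoA ligase, was at -1.27 and -0.02, and Hsd17b4, the peroxisomal bifunctional enzyme of side-chain shortening, was at -0.89 and 0.26. Cyp7a1, the rate-limiting enzyme of the classic pathway, was nearly the same on both arrays at -0.57 and -0.47. Cyp7b1, the hydroxylase of the alternative pathway, lay far below chow on both, at -1.88 and -1.98, and its scaled difference was -1.21. Slc10a1, the sodium-dependent bile acid importer of hepatocytes, was at -1.90 on the plain array and -0.61 on the high-fat array, a difference of 1.29 that was 0.63 scaled.

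Of cholesterol synthesis, none of the 7 measured genes from acetyl-CoA to squalene and none of the 10 from squalene to cholesterol passed that size as deposited, with medians of -0.08 and 0.09; 1 of the latter was lower with arrays scaled. The medians of both groups lay below chow on either array, at -0.41 and -0.09 for the first group and -0.67 and -0.40 for the second. Single members lay above chow on the plain array, such as Mvd at 0.70 and Cyp51 at 0.62. The median of the second group was -0.47 with arrays scaled, so its sign depends on the scale. Sqle, the squalene epoxidase, was at -0.44 on the plain array and -0.70 with the added fat. The sterol half-transporters Abcg5 and Abcg8, which export cholesterol into bile, differed by 0.34 and -0.12.

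Fatty acid synthesis and desaturation had 2 of 19 genes higher and 1 lower, with a median of 0.37 that was 0.13 with arrays scaled. Scd1, the stearoyl-CoA desaturase of hepatocytes, was at 0.19 relative to chow on the plain array and at 1.14 on the high-fat array, a difference of 0.95. Scd2, its relative, was at -0.82 and 0.25, and Thrsp, a regulator of lipogenesis also called Spot 14, was at -0.18 and 0.88. Fasn, the fatty acid synthase, differed by 0.03 as a mean of 2 probes. Acaca, the acetyl-CoA carboxylase that commits carbon to synthesis, was at 0.72 on the plain array and -0.30 on the high-fat array. However, its 2 probes differed by -1.59 and -0.44. The first of them was at 0.75 and -0.84, in the band where probes pile up as described below, so the call rests on that probe. Cd36, a fatty acid uptake receptor, was at 0.53 and 1.44, a difference of 0.91. Its scaled difference was 1.42. Srebf1 and Pparg, transcription factors of lipid storage, differed by 0.36 and 0.38.

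Detoxification genes differed in both directions. Carboxylesterases, which hydrolyse esters and drugs, had 3 of 11 genes higher, none lower and a median of 0.63 (0.38 scaled, 0.53 centred by code). With arrays scaled only Ces1d was higher. Ces1d, also known as triacylglycerol hydrolase, was at -1.94 on the plain array and 0.07 on the high-fat array. Conjugating enzymes had 5 of 37 higher and 1 lower, with a median of 0.40 (0.22 scaled). Ugt1a1, the bilirubin glucuronosyltransferase, was at -1.53 and 0.01. Sult2a2, a hydroxysteroid sulfotransferase, was near chow at 0.25 on the plain array and at 2.15 on the high-fat array, so here the high-fat array was the one far from chow. Cytochromes P450 of families 1, 2 and 3 had 7 of 26 higher and 1 lower, with a median of 0.26 that was 0.11 scaled. Cyp2b9 was at -0.78 on the plain array and 1.49 on the high-fat array, and its difference was 2.27 as deposited, 2.54 scaled and 1.999 centred by code. Cyp2c39, a retinoic acid hydroxylase, was at -1.31 and 0.24, and Cyp1a2, the caffeine-metabolising enzyme, at -1.32 and 0.13. Cyp3a11, the main hepatic member of family 3, went the other way, from 0.77 to -0.59. Probes of these families can cross-hybridise between near-identical members.

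Cyp2b9 and Sult2a2 are known for higher expression in female than in male mouse liver. The list of such genes had 3 of 9 higher (2 scaled), none lower and a median of 0.45 (0.33 scaled), and the remaining gene at least 2-fold higher was Cyp2c40, from -1.13 to 0.08. Its other members ran from -0.66 for Cux2, a female-specific transcription factor, to 0.53 for Abcd2. Of the genes known for higher expression in male liver, Elovl3, a fatty acid elongase, was at -2.17 on the plain array and -2.49 on the high-fat array. Slco1a1, an organic anion transporter, was at -1.71 and -2.09. Their list had 2 of 13 genes lower and a median of -0.10 as deposited, against -0.04 for all genes. The 2 were C6, at -0.11 and -1.73, and Serpina1e, at 0.52 and -1.35, the latter where probes pile up as described below. With arrays scaled the list's median was -0.80 and 5 of the 13 were lower. The list lay well below chow on both arrays, with medians of -0.78 and -0.88, and scaling changes values far from chow most. Members of this list also lay near or above chow on the plain array, such as Selenbp2, a selenium-binding protein, at 0.15 and -0.45.

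**Figure D4:**
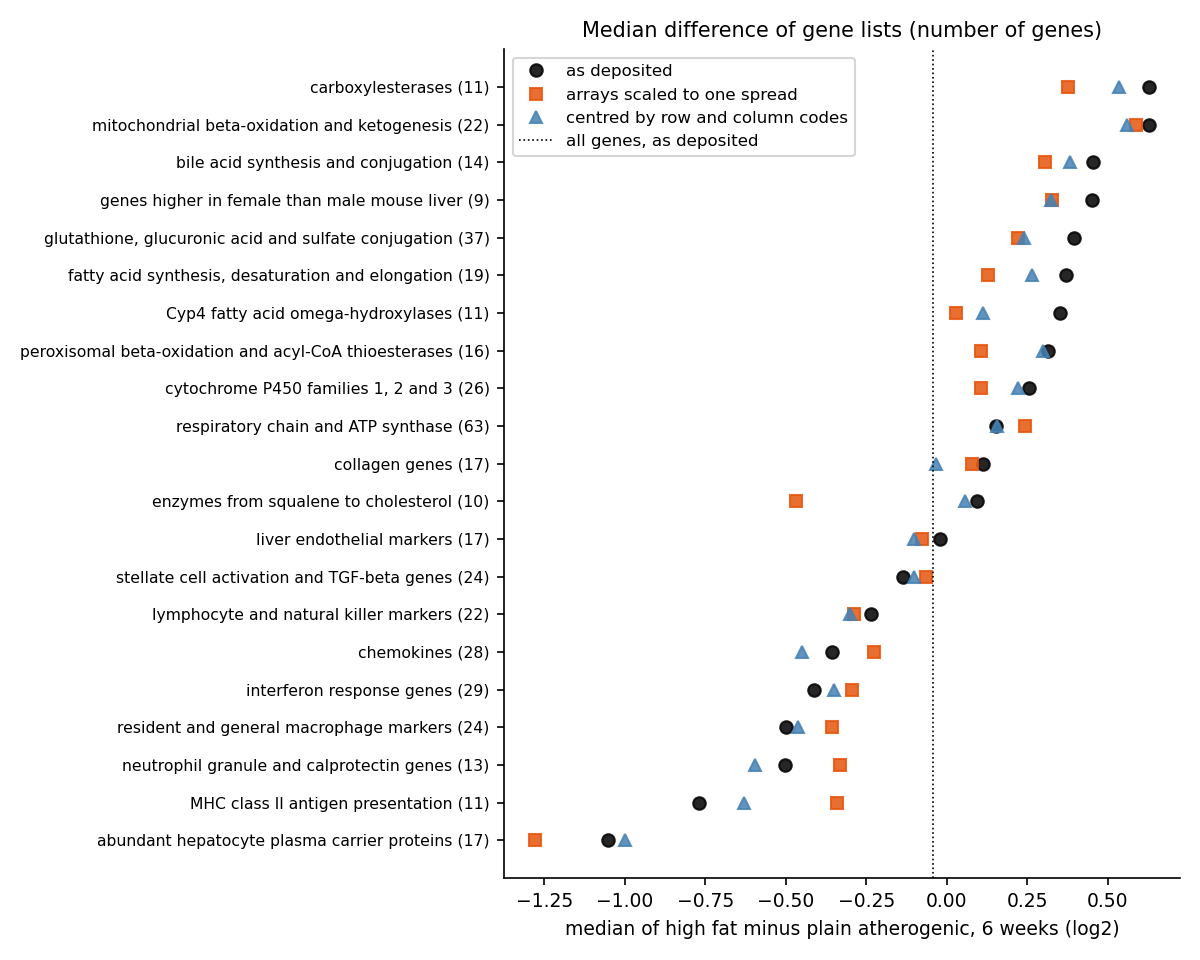
Median of the high-fat minus plain difference (horizontal axis, log2) for 21 gene lists with the number of measured genes in brackets: as deposited (circles), with both arrays scaled to the same spread (squares) and centred by the row and column codes of the probe identifiers (triangles). Beta-oxidation keeps a median of at least 0.56 in all 3 versions, MHC class II shrinks from -0.77 to -0.34 with scaling, and squalene to cholesterol changes sign with scaling.

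Several immune lists had negative medians, though not all. The median of all genes was also negative, at -0.04 as deposited, -0.13 with arrays scaled and -0.12 centred by code. Most genes thus had a negative difference in each version. A list was read as apart where its median lay 0.3 or more from that of all genes both as deposited and scaled. Of all 55 lists, 5 were apart above and 1 below, and none of these was an immune list. The cytokine and receptor list had none of 25 genes 2-fold apart and a median of 0.02. MHC class I had 1 of 11 lower, B2m, its light chain, from 0.47 to -0.84, with a list median of -0.17 that was 0.03 scaled. Of the 3 probes of B2m, 1 was at 0.87 on the plain array and -1.07 on the high-fat array, in the band where probes pile up as described below. The others differed by -1.02 and -0.95, so the size of the B2m difference is not secure. MHC class II had 3 of 11 genes at least 2-fold lower (1 scaled and 1 centred by code), none higher, and all 11 had a negative difference, with a median of -0.77 (-0.34 scaled, -0.63 centred by code). With arrays scaled 9 of the 11 were negative, and Cd74 and H2-Ab1 were not. The list was above chow on both arrays, with medians of 1.11 on the plain array and 0.31 on the high-fat array. H2-DMb1, a subunit of the peptide-loading factor, was at 2.20 and 0.79. H2-Aa, the alpha chain of I-A, was at 2.65 and 1.59, and its difference of -1.06 was -0.08 with arrays scaled. H2-Eb1, the beta chain of I-E, was measured by 7 probes with a mean of 1.96 on the plain array and 1.19 on the high-fat array. Their differences ran from -1.07 to -0.08. Cd74, the invariant chain, differed by -0.09 over 3 probes and Ciita, the class II transactivator, by -0.06 over 2 probes.

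Macrophage markers moved with the MHC class II genes. Of 24 markers, 2 were at least 2-fold lower, none higher and 21 had a negative difference (17 with arrays scaled), with a median of -0.50 (-0.36 scaled, -0.46 centred by code). Marco, a scavenger receptor, was at 1.69 on the plain array and 0.52 on the high-fat array, and C1qb, a complement C1q chain made by macrophages, was at 2.26 and 1.14. With arrays scaled the differences of Marco and C1qb were -0.74 and -0.36, and the 2 markers then lower were Vsig4 and Cd163. Adgre1, an adhesion receptor used to mark macrophages, was at 0.85 and 0.19. Cd68, a lysosomal macrophage protein, was 0.84 above chow on the plain array and 1.01 above it on the high-fat array, against the direction of the list. Lipid-associated macrophage genes had a median of -0.06 (0.21 scaled) and only Clec7a, the beta-glucan receptor dectin-1, was 2-fold lower, from 3.37 to 1.48. With arrays scaled none of the 19 was lower and 3 were higher. Gpnmb, a lysosomal glycoprotein of lipid-laden macrophages, was at 1.38 and 2.02. The part of cell number in these differences was not tested.

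Interferon response genes had 4 of 29 lower, none higher and a median of -0.41 (-0.29 scaled, -0.35 centred by code). Gbp3 and Gbp2, interferon-inducible GTPases, were at 2.97 and 2.07 on the plain array and at 0.90 and 0.34 on the high-fat array. Oasl1, an oligoadenylate synthetase-like protein, was at 1.05 and -0.52, and Mx1, an antiviral GTPase, at 0.89 and -0.41. Centred by code, Gbp3 and Gbp2 kept differences of -1.57 and -1.97, while Oasl1 and Mx1 were at -0.98 and -0.77. Igtp, another interferon-inducible GTPase, differed by 0.86 in the opposite direction. Rsad2, Irf9, Mx2 and Stat2, also of this list, differed by 0.08 or less.

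Neutrophil genes had 2 of 13 lower, none higher and a median of -0.50 (-0.33 scaled). These were the calprotectin subunits S100a9, at 3.24 on the plain array and 1.48 on the high-fat array, and S100a8, at 2.80 and 1.26. With arrays scaled their differences were -0.69 and -0.63, so none of the list was then 2-fold lower. Mpo and Elane, granule enzymes of immature neutrophils, were below chow on both arrays and differed by 0.02 and 0.07. Among lymphocyte and natural killer markers, 4 of 22 were lower (Thy1 and Cd3d when scaled) and none higher, with a median of -0.23 (-0.29 scaled). Thy1 had the largest difference and lay below chow on both arrays, at -1.83 and -3.81. Cd3d, a T cell receptor subunit, went from 1.74 to 0.19. Cd52, a leukocyte surface glycoprotein, went from 2.25 to 0.82, a difference of -0.78 when scaled. Of the 22 markers, 16 were below 0 and 5 above it, such as Prf1 at 0.38 and Gzma at 0.23. Chemokines had 2 of 28 lower and a median of -0.36 (-0.23 scaled), led by Cxcl16, from 1.65 to 0.44. The scaled differences of these 2, Cxcl16 and Cxcl14, were -0.81 and -0.91, and the 2 lower when scaled were Cx3cl1 and Ccl24. With arrays scaled 2 were also higher, Ccl6 and Ccl9, which were at 2.29 and 2.20 on the plain array and 2.97 and 2.37 on the high-fat array. Ccl2, the monocyte chemoattractant, was at 1.67 and 1.57, and its scaled difference was 0.69. Tnf differed by 0.44 and Tgfb1, a fibrogenic cytokine, by 0.30.

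**Figure D5:**
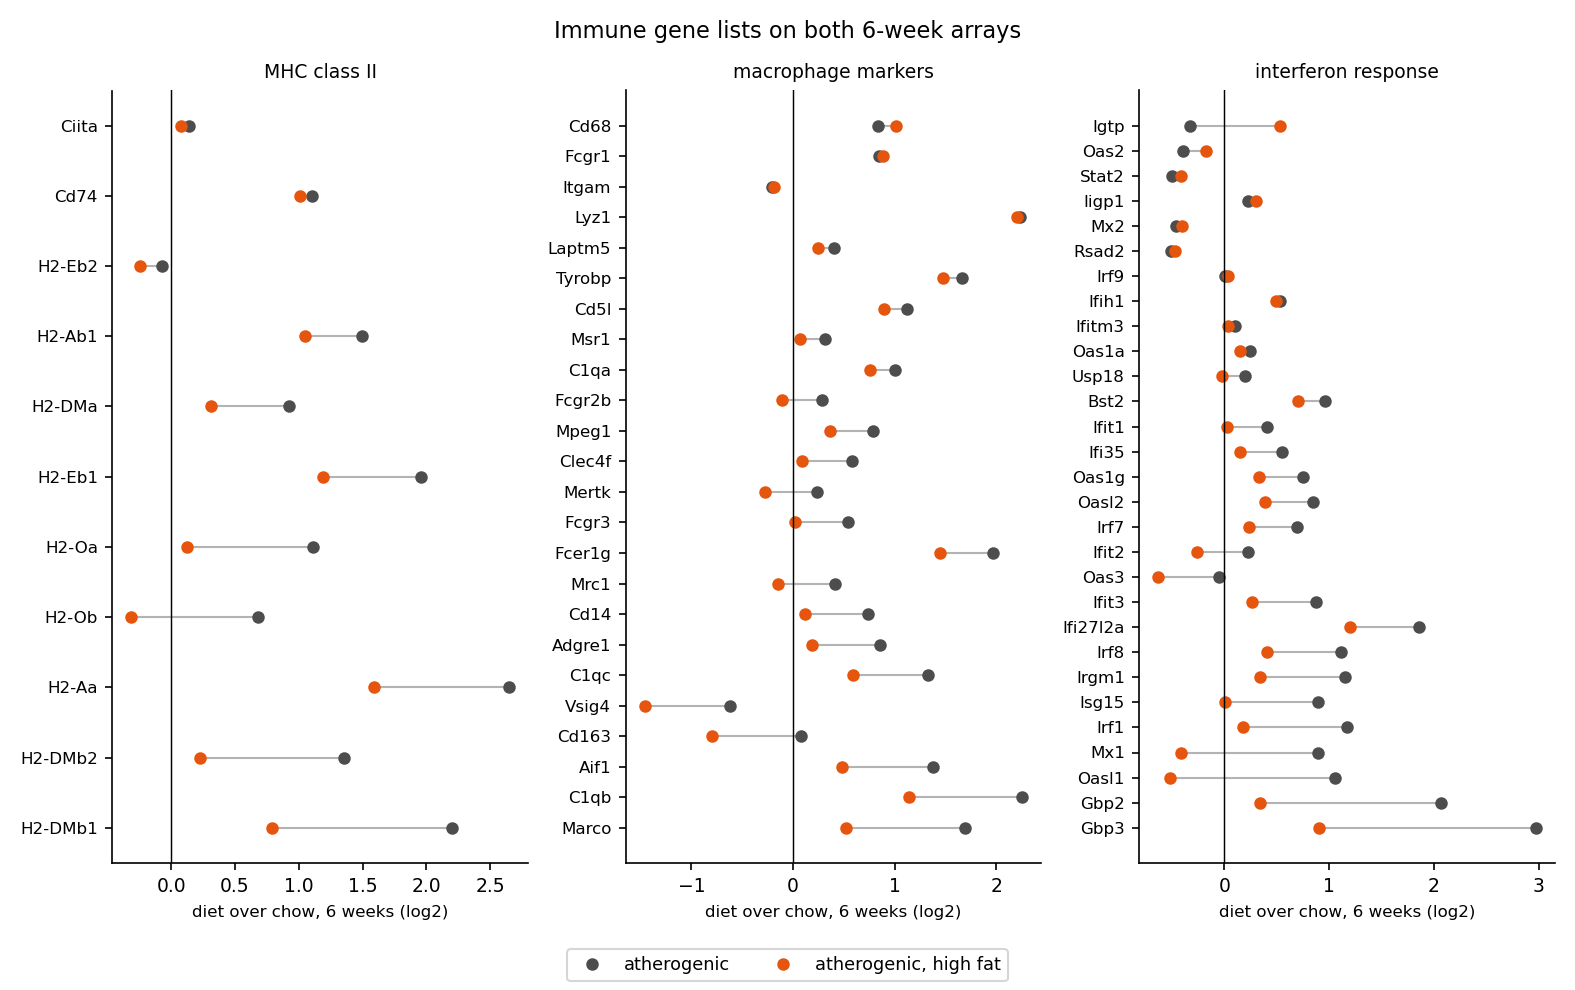
Log2 ratio over chow (horizontal axis) of each measured gene of the MHC class II, macrophage and interferon lists on the plain atherogenic array (grey) and the high-fat array (orange), 1 array each, ordered by their difference. As deposited, all 11 MHC class II genes and 21 of 24 macrophage markers lie further left on the high-fat array (9 and 17 with arrays scaled), while Igtp and Cd68 lie further right. The median difference of all genes was also below 0, at -0.04 as deposited and -0.13 with arrays scaled.

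Extracellular matrix genes held differences of either sign. Collagens had 1 of 17 higher (3 scaled), none lower and a median of 0.11 (0.08 scaled, -0.03 centred by code). Col1a2, a chain of type I collagen, was at 0.75 on the plain array and 1.82 on the high-fat array, and its scaled difference was 1.75. Col5a2 and Col3a1, chains of other fibrillar collagens, were at 0.93 and 0.58 on the plain array and at 1.88 and 1.43 on the high-fat array. Col1a1, the partner chain of Col1a2, had a mean difference of 0.25 over 5 probes that ranged from -0.96 to 1.85, so its probes disagreed in sign. The matrix remodelling list had 1 of 25 higher and 1 lower (4 and 1 scaled), 15 below 0 and a median of -0.09. Its higher gene was Mmp7, the matrilysin protease, at 2.18 and 3.19, and its lower gene Loxl2, a lysyl oxidase, at 0.60 and -0.63. The 2 probes of Loxl2 differed by -2.22 and -0.24. The first of them lay at -1.35 on the high-fat array, where probes pile up as described below, so the call rests on that probe. Timp1, an inhibitor of such proteases, and Acta2, the smooth muscle actin of activated stellate cells, differed by 0.01 and 0.41. Stellate cell genes had none of 24 at least 2-fold apart, with a median of -0.14.

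Abundant hepatocyte plasma carriers formed the list with the lowest median, -1.05 (-1.28 scaled, -0.9998 centred by code), with 9 of 17 genes lower and 1 higher. The sizes of these differences cannot be read, because their probes pile up near shared values. On the high-fat array 34 probes lay at -1.35, where 6.63 were expected from the surrounding values. In bands chosen after the values were seen, 41 probes had values from 0.7 to 0.9 on the plain array together with values at or below -0.8 on the high-fat array, against 15 from 0.5 to 0.7 and 3 from 0.9 to 1.1. Ttr, the thyroxine carrier transthyretin, was at 0.42 on the plain array and -1.35 on the high-fat array. Trf, transferrin, was at 0.83 and -1.15 as a mean of 3 probes, whose differences lay between -2.02 and -1.94. Leaving out the 3 genes of the list with a probe at a repeated value, its median was -0.94. Apoc1, Gpx1, the cytosolic glutathione peroxidase, and Mgst1, a microsomal glutathione transferase, lay in the same region at 0.84, 0.87 and 0.86 on the plain array and -1.22, -1.14 and -1.32 on the high-fat array. Whether a limit of the measured ratio gives these values was not tested. The 1 higher gene of the list was Fetub, a secreted fetuin, at -1.29 and 0.23. Amino acid and urea cycle genes had 5 of 20 higher and 2 lower as deposited, but 3 higher and 6 lower with arrays scaled, and 3 higher and 4 lower centred by code. Tat, the tyrosine aminotransferase, was at -1.53 and -0.07.

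Of 27 antioxidant genes, 2 were lower, Gpx1 and Prdx1, and none was higher, with a median of 0.04 (-0.04 scaled). Cat, the peroxisomal catalase, was at -0.56 and -0.51, Sod1, the cytosolic superoxide dismutase, at -0.32 and -0.60, and Sod2, its mitochondrial counterpart, at -0.50 and 0.29. Prdx1, a peroxiredoxin, was at 0.56 on the plain array and -0.48 on the high-fat array, and Txn1, the cytosolic thioredoxin, at 0.82 and 0.06.

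Among all genes, list members included, the 15 largest positive and 15 largest negative differences, taken among genes at least 2-fold apart both as deposited and scaled, each came from 1 probe. After Cyp2b9 the higher genes were a probe named SVIL, a symbol in human style for the actin-binding protein supervillin, then Cyp39a1, Rims2, Ovol2, Ces1d, Rasl11a, Sult2a2, Hoxc5, Serpinf1, Plek2, Cgnl1, Lrrc9, Gtf2ird2 and Slc14a2, with differences between 2.14 and 1.65. Serpinf1, the secreted factor PEDF made by hepatocytes, was at -1.57 on the plain array and 0.24 on the high-fat array. Ovol2, an epithelial transcription factor, was at -1.04 and 0.97. Hoxc5, a homeobox gene of axial patterning, and Slc14a2, a urea transporter best known from kidney, are not typical liver genes, and both lay near chow on the high-fat array, at 0.00 and -0.13, with all of their difference on the plain array.

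The largest negative difference was that of Mrgpra4, a Mas-related receptor known from sensory neurons, at 2.91 on the plain array and -0.12 on the high-fat array. Galnt10, Chst12 and B3gntl1, enzymes of glycan synthesis by their names, followed with -2.34, -2.33 and -2.20. Chst12 was at 0.81 on the plain array and -1.51 on the high-fat array, in the band where probes pile up as described above. Mgst1, Apoc1 and Gpx1, also among the 15 lower genes, lay in that band too, so the sizes of these differences cannot be read. Fpr2, a formyl peptide receptor of myeloid cells, was at 2.19 and 0.15, and Spink1, a trypsin inhibitor, at 2.41 and 0.30. Kbtbd12, Fhl2, Rttn, Olfr1246 and Got1l1 were likewise well above chow on the plain array and within 0.61 of it on the high-fat array. Of the 15 lower genes, 6 had their probe at codes 11, 12, 23 or 24, those with the highest medians on the plain array, against 1 of the 15 higher genes. Centred by code, all 15 of either direction were still at least 2-fold apart. They had been picked as the largest differences, and the code medians spanned less than such sizes. That count therefore says little about the part of the codes.

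The same diets at 24 weeks gave fewer 2-fold differences as deposited, with 53 of 13705 genes higher with the added fat (0.387%) and 159 lower (1.16%). The plain 6-week array had a wider spread than the plain 24-week array, with median absolute deviations of 0.30 and 0.26. Its medians by the last code of the identifiers also ranged wider, from -0.23 to 0.54 against -0.12 to 0.27. The part of these properties in the lower counts was not tested. The durations are set side by side without a test, since each value rests on 1 array a diet. The chow reference may also be shared. Cyp2b9 differed by 2.27 at 6 weeks and 1.12 at 24 weeks, and Car3, the muscle-type carbonic anhydrase abundant in male liver, by 1.49 and 1.57. Sult2a2 differed by 1.90 and 0.18, and Cyp39a1 by 2.08 and -0.15. For Cyp39a1 the plain array was the one that differed between durations, at -1.32 after 6 weeks and 0.83 after 24 weeks. The MHC class II list had a median of -0.77 at 6 weeks and -0.05 at 24 weeks, the interferon list -0.41 and -0.26, and the carboxylesterase list 0.63 and 0.44.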

How the data were processed

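Each of the 4 arrays compared liver RNA of 1 diet (Cy5) with chow liver RNA (Cy3), per the labels. Per the design text, the authors used an Agilent G2505B scanner, GenePix Pro 4.1 for the spots and GeneSpring 7.2 for LOWESS normalization; how background was corrected or spots filtered is not stated there. The values the authors deposited are signed log ratios without a stated base, read here as log10 and converted to log2; folds depend on that reading. Direction was taken from the dyes, and any centring beyond LOWESS is unknown. No spot intensities were used, so signal over background is unknown, and precision is limited by having 1 array a diet.

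Of 28845 probes, 17637 had 1 gene symbol in the platform table, 64 several and 11144 none; 252 of the named probes had a gene that the RefSeq table did not list. Genes were averaged over the 17251 named probes with values on both 6-week arrays (pandas 2.3.3, Python 3.11.15). The contrast was computed as deposited and with both arrays centred and scaled to their mean median absolute deviation, and the steps were tested on simulated data. Genes were named by rule: the 15 largest differences each way that were at least 2-fold in both versions, from probes of the same sign and with no repeated value, passing over predicted genes and clones; up to 4 genes of each of 55 lists; and a fixed set of liver genes. Genes named beyond that were chosen after their values were seen. The contrast, the lists and the rule were chosen with earlier results of these data known. Alternatives were other centrings and scalings, other probe summaries and filters, another log base and other folds; centring by the codes of the probe identifiers was added after the data were seen.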

Additional observations from a re-analysis of the deposited data

Results flagged for a closer look

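For 7 of the named genes the added fat went with differences of opposite sign at 6 and 24 weeks, each of a size of 0.4 or more. This contrast between durations was not tested, because each value rests on 1 array a diet. The fatty acid omega-hydroxylases Cyp4a14 and Cyp4a10 were higher at 6 weeks, by 1.44 and 0.50, and differed by -0.48 and -0.49 at 24 weeks. For Cyp4a14 the plain array was at -1.71 and then -1.38 relative to chow, and the high-fat array at -0.27 and then -1.86, so the high-fat array was the one that stood apart. H2-Aa, an MHC class II chain, differed by -1.06 at 6 weeks and 0.62 at 24 weeks, with values above chow on all 4 arrays. Mmp7, the matrilysin protease, differed by 1.01 and -0.83, also above chow on all 4 arrays. Tnf, the inflammatory cytokine, differed by 0.44 at 6 weeks and -1.29 at 24 weeks, the latter with the plain array at 1.40 and the high-fat array at 0.11. Igfbp1, a hepatic binding protein of insulin-like growth factors, differed by 0.42 and -0.97. Rpl35a, a ribosomal protein, differed by -0.88 and 0.44.

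Probes without 1 gene name were not used in the contrast, yet they carried differences of the same size. Of 10680 such probes with values on both 6-week arrays, 376 (3.52%) were at least 2-fold higher with the added fat and 259 (2.43%) lower. Among the 17251 named probes the shares were 1.61% and 3.56%, so the balance between directions differed between named and unnamed probes. What the unnamed probes measure is not known here.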

How the results depend on the processing

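The count of 196 higher genes became 128 centred by row and column codes, 111 centred so and then scaled, 874 counted from 1.5-fold and 16 from 3-fold. It was 0 with the deposited values read as natural logarithms, where the largest positive difference lies just under 2-fold. The count of 436 lower genes became 282 after quantile normalization, 232 centred by plate, row and column codes, 1702 from 1.5-fold, 76 from 3-fold and 3 with natural logarithms. The other alternatives kept each count within 1.5 times. The median of the phagocyte NADPH oxidase list, -0.36, fell to the other side of the median of all genes centred by row and column codes (-0.076 and, then scaled, -0.043, against -0.12 for all genes in both). Of 55 list medians, 5 moved by at least 0.3 against all genes with arrays scaled. Of 195 named genes, 39 moved by more than the spread between probes with arrays scaled and 18 centred by row and column codes, and none that was 2-fold apart changed sign. The causes were not tested. With 1 array a diet no replicate could be left out. No paired analysis was possible because each group holds 1 array.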
